A study of Mus musculus with 4 samples.

Results

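The 32 genes described here encode antiviral effectors that interferon switches on, such as the Ifit, Oas and Mx families and Isg15. They were chosen by gene symbol from a fixed list, with earlier results of these data known, so the counts below are descriptions. All 32 are among the 23366 genes of the expression table. Interferons are secreted proteins released when a cell senses foreign nucleic acid. Binding to their receptors activates Janus kinases, which phosphorylate Stat proteins, and these join Irf9 to form ISGF3, a complex that binds a promoter element called ISRE. The effectors that follow block viral entry, RNA, translation and budding, and fibroblasts, the connective tissue cells that make matrix, are a classic cell type for studying them.

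Poly(A) RNA was sequenced from immortalized fibroblasts of mouse embryos (MEFs), kept as 4 cultures with 1 library each. The cultures carried Minimal Myc, MycN, Myc or an empty vector, and all 4 were given Cre recombinase, a DNA-cutting enzyme, by adenovirus. Recovery before harvest is given as 48 with no unit, and the series design describes the comparison as deleted Myc against added Myc proteins, which are transcription factors of cell growth. The labels do not give the structure of Minimal Myc, nor whether a culture was a clone or a pool. With 1 library per group no difference below has a replicate check, an error or a p-value.

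The gene that names each culture was read first. Myc stood at 32.6 FPKM in Minimal Myc, 4.36 in MycN, 141 in Myc and 22.2 in vector, and Mycn at 95.9 FPKM in Minimal Myc, 178 in MycN, 0.275 in Myc and 0.390 in vector. FPKM are fragment numbers divided by transcript length and by library total. They are relative levels within a library, so differences between libraries depend on how the libraries are scaled. Myc transcript was thus present in the vector culture. The cells had the transcripts of fibroblasts in all 4 libraries, where 10 of 12 fibroblast markers reached 1 FPKM. Their summed level was 3365 FPKM in Minimal Myc, 2612 in MycN, 3559 in Myc and 2712 in vector. The libraries also differed over all genes: the median gene was higher than in vector, by 0.47 for Minimal Myc, 0.42 for MycN and 0.47 for Myc in log2(FPKM + 1), and Rmrp, an untailed RNA, stood at 14.9 FPKM in Minimal Myc, 57.7 in MycN, 22.5 in Myc and 118 in vector. The part of either in the results was not tested.

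All 32 effector genes had their highest level in Minimal Myc, where 35.8% of all 11641 genes past the filter (a mean of at least 1 FPKM) had theirs. Of the 32, 6 (named below) passed the filter only through Minimal Myc, which favours a high level there. The other 26 had their highest level there as well. The median level of the 32 genes was 40.1 FPKM in Minimal Myc, 2.21 in MycN, 4.997 in Myc and 4.997 in vector. The summed level was 3583 FPKM in Minimal Myc, 204 in MycN, 406 in Myc and 347 in vector. Minimal Myc therefore stood apart from the other libraries, and its lowest gene of the set, at 10.1 FPKM, was above the median of the set in each of them. MycN was the lowest library for 24 of the 32 genes, against 11.9% of all genes. Among the 24 are Oas2, Mx1, Mx2, Rsad2 and Cmpk2, which passed the filter only through Minimal Myc. Vector was the lowest for 7 and Myc for 1, against 68.1% and 7.79% of all genes.

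**Figure D1:**
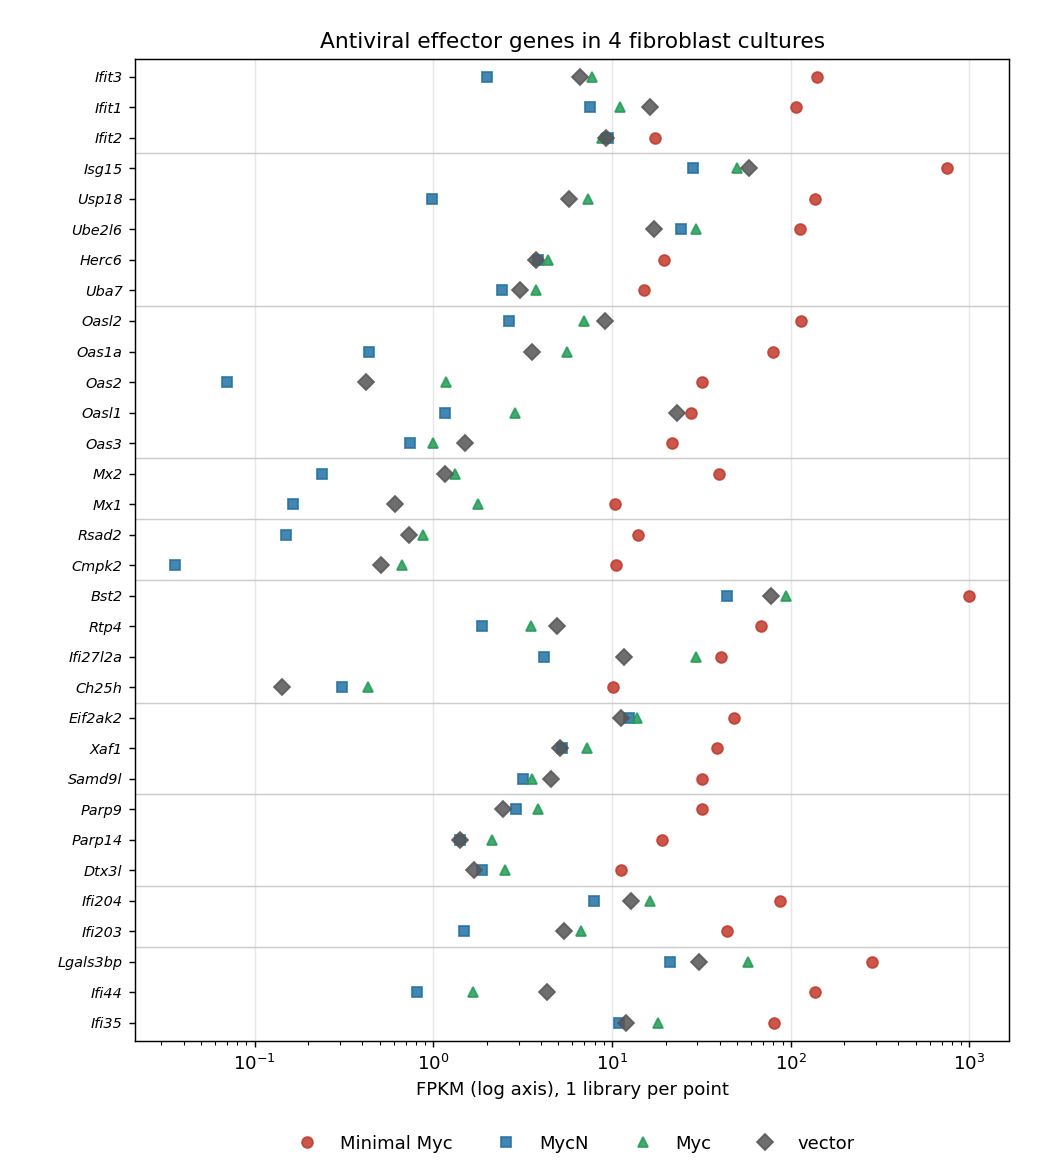
Level of each of the 32 antiviral effector genes in FPKM (log axis), with 1 point per library and grey lines between functional groups. The Minimal Myc point lies to the right of the other points in all 32 rows, closely so for Oasl1 against vector (27.6 and 23.1 FPKM) and Ifi27l2a against Myc (40.5 and 29.3 FPKM).

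A gene was counted as different when log2(FPKM + 1) differed by at least 1, called 2-fold below; the added 1 FPKM makes this scale understate the differences of low genes. Minimal Myc was at least 2-fold above vector for 30 of the 32 genes and below for 0, where 13.6% of all genes were above and 1.68% below. The median difference of the 32 genes was 2.99, against 0.47 over all genes, and after subtraction of that shift the count was also 30, against 3.72% of all genes, with 0 below (4.68%). At 8-fold, 16 of the 32 genes passed, out of 75 in all (0.644%), and 12 were at least 8-fold above each of the other 3 libraries, as 0.258% of all genes were. All 32 genes passed the filter, but 6 of them did so only through Minimal Myc and so had to differ there: Oas2, Mx1, Mx2, Rsad2, Cmpk2 and Ch25h. Of the other 26 genes, 24 were at least 2-fold above vector, with a median difference of 2.76. The 8-fold counts include some of the 6 genes. Oas2, Mx2, Rsad2 and Ch25h are in the 16 above vector, and Oas2, Mx2 and Rsad2 are in the 12.

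MycN against vector ran the other way. It was at least 2-fold below vector for 11 of the 32 genes and above for 0, where 1.86% of all genes were below and 7.65% above. The 11 genes were Ifit1, Ifit3, Isg15, Usp18, Oas1a, Oasl1, Oasl2, Ifi44, Ifi27l2a, Ifi203 and Rtp4. The median difference of the 32 genes was -0.53, against 0.42 over all genes, and relative to that shift 15 genes were lower and 0 higher, against 4.19% and 1.86% of all genes. With the authors' scaling, 7 genes were lower, where 1.24% of all genes were and the median over all genes was 0.75.

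Myc against vector gave few 2-fold differences. Ifi27l2a was the 1 gene above, where 11.2% of all genes were above, and Oasl1 and Ifi44 were the 2 below, where 1.56% were. The median difference was 0.27, under the 0.47 of all genes. The direction here depends on the scaling: after subtraction of the shift the median was -0.21 and 0 genes were above and 3 below (1.87% and 4.38% of all genes), whereas in the authors' scaled table the median was 1.15 and 19 genes were above, where 76.8% of all genes were. That scaling moves all genes, to a median of 0.79 for Minimal Myc, 0.75 for MycN and 1.41 for Myc against vector, so the median of the 32 genes in Myc lay below that of all genes there too. These 3 comparisons share the vector library, so a chance value in it enters all of them.

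Between the cultures with a Myc protein, Minimal Myc was at least 2-fold above Myc for 30 of 32 genes (4.48% of all genes) and above MycN for 31 (6.94%), and below for 0 in each (2.16% and 3.69% of all genes). The median differences were 2.82 and 3.57, where those of all genes were -0.03 and 0.05. Without the genes that passed the filter only through Minimal Myc, the counts were 24 and 25 of 26, with medians of 2.72 and 3.48. Ifit2 missed the threshold in both, and Ifi27l2a missed it against Myc. The comparisons of Minimal Myc, that against vector included, share the Minimal Myc library, so a chance value in it enters all of them. MycN was at least 2-fold below Myc for 10 genes, where 2.74% of all genes were, and above for 0, where 1.95% were. Oas2 and Mx1, which passed the filter only through Minimal Myc, are among the 10, and 8 of the 26 other genes were lower. By sign alone MycN was below Myc for 31 of 32 genes, with Ifit2 as the exception, and 56.4% of all genes were below. The 31 include the genes that passed the filter only through Minimal Myc, whose levels in MycN were low. With the authors' scaling, 22 genes were at least 2-fold below Myc, where 19.9% of all genes were and the median over all genes was -0.66. Relative to the median of all genes in the unscaled table, -0.06, 9 were lower. The share of all genes lower on that scale was not computed.

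**Figure D2:**
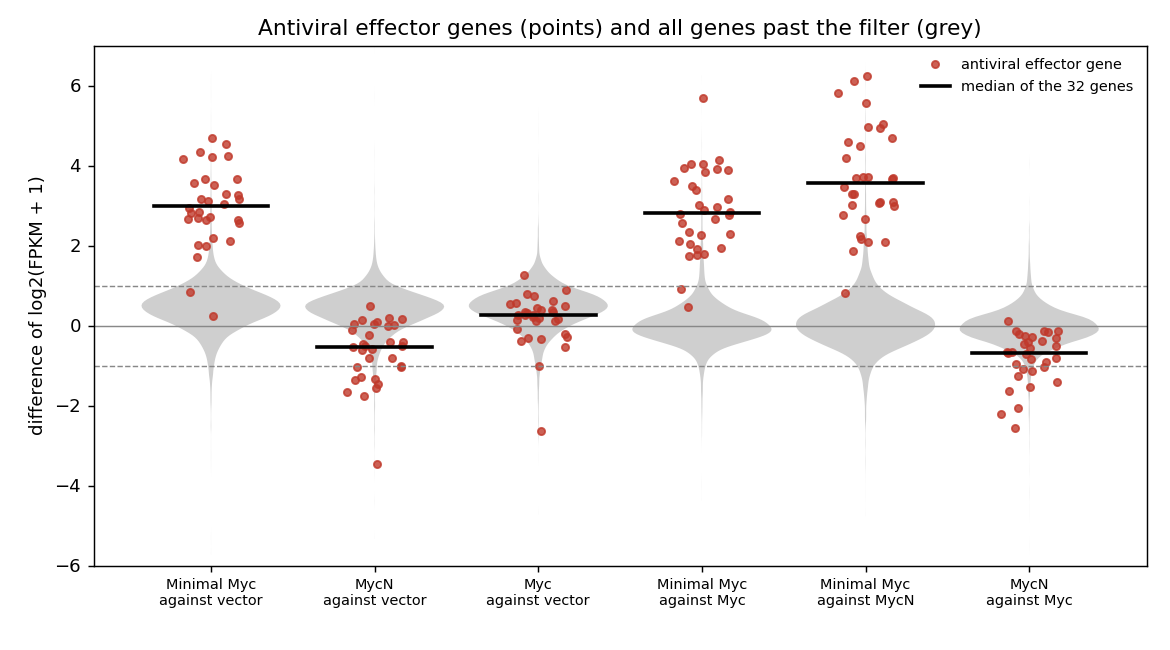
Difference of log2(FPKM + 1) in each of 6 comparisons for the 32 antiviral effector genes (points) and their median (black bar), over the distribution of all 11641 genes past the filter (grey shape); dashed lines mark 2-fold. The grey shapes include the 32 genes. In the 3 comparisons of Minimal Myc the points lie mostly above the upper dashed line, in the upper part of the grey shapes. Their medians are 2.99 against vector, 2.82 against Myc and 3.57 against MycN. The points of MycN against vector and against Myc lie mostly below 0, with medians of -0.53 and -0.68.

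The promoters of these genes were read for the ISRE, the element that ISGF3 binds. The genes were listed as induced by interferon, so more matches than over all genes could be foreseen and are no result of these libraries. RefSeq promoter windows (build GRCm38.p6, a later build than the authors' mm9) run from 250 bases before to 50 after the transcript start and were matched by symbol for 23 of the 32 genes; Usp18, Oas2, Mx1, Mx2, Ifi27l2a, Ifi204, Parp9, Parp14 and Rtp4 were not analysed here. The core searched was GAAA, any 2 bases, then GAAA, on both strands (TTTC, any 2 bases, TTTC on the other), and matches may overlap. It was found in 9 of the 23 genes (39.1%), against 3.99% of the 27025 genes with a window. Those 27025 include genes that did not pass the filter used above, and the share among genes past it was not computed. Those 9 were Ifit1, Ifit3, Isg15, Oas1a, Oas3, Rsad2, Bst2, Ifi203 and Eif2ak2. The element GAS, TTCNNNGAA, which binds pairs of Stat proteins, was in 5 of 23 (21.7%, against 9.55% of genes), and in Bst2 it overlaps the ISRE core. The E-box CACGTG, the element that Myc and Max bind, was in 0 of the 23, against 8.09% of genes. A match is a description of these letters and not a bound site.

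The 250 bases upstream of the start are shown for the 4 genes with the highest Minimal Myc level among those with an upstream ISRE core, in the direction of transcription, with the core in capitals.
Bst2 (GRCm38.p6, chr8:71537473-71537722, minus strand): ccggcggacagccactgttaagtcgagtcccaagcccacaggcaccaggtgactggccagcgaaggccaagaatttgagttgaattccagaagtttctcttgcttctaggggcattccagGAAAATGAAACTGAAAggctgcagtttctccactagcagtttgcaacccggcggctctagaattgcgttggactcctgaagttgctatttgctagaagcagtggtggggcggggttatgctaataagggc
Isg15 (GRCm38.p6, chr4:156200819-156201068, minus strand): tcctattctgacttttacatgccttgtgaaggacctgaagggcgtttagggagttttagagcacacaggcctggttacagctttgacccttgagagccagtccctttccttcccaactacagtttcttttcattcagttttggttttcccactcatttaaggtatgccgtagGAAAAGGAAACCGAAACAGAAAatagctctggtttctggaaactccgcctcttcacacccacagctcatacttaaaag
Ifit3 (GRCm38.p6, chr19:34583279-34583528, plus strand): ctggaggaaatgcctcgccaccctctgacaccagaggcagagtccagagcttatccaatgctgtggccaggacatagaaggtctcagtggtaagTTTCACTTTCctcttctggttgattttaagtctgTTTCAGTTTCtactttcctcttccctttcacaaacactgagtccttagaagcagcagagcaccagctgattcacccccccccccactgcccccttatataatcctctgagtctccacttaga
Ifit1 (GRCm38.p6, chr19:34640639-34640888, plus strand): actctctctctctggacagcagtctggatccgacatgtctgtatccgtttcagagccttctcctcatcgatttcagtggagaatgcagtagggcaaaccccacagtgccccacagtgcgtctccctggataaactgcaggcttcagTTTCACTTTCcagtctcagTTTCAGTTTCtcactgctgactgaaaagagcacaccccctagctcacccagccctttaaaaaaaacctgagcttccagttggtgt

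In Bst2 2 overlapping matches span bases -130 to -115, and in Isg15 3 overlapping matches span -78 to -57. Ifit3 and Ifit1 each hold 2 separate matches on the other strand, starting at -156 and -122 in Ifit3 and at -104 and -85 in Ifit1. Shorter stretches of 30 bases show the core in 4 further genes.
Oas1a (GRCm38.p6, chr5:120907526-120907555, minus strand): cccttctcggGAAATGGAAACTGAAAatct
Oas3 (GRCm38.p6, chr5:120777715-120777744, minus strand): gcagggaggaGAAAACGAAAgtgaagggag
Rsad2 (GRCm38.p6, chr12:26456553-26456582, minus strand): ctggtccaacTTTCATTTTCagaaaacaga
Ifi203 (GRCm38.p6, chr1:173942508-173942537, minus strand): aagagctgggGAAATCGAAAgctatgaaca

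**Figure D3:**
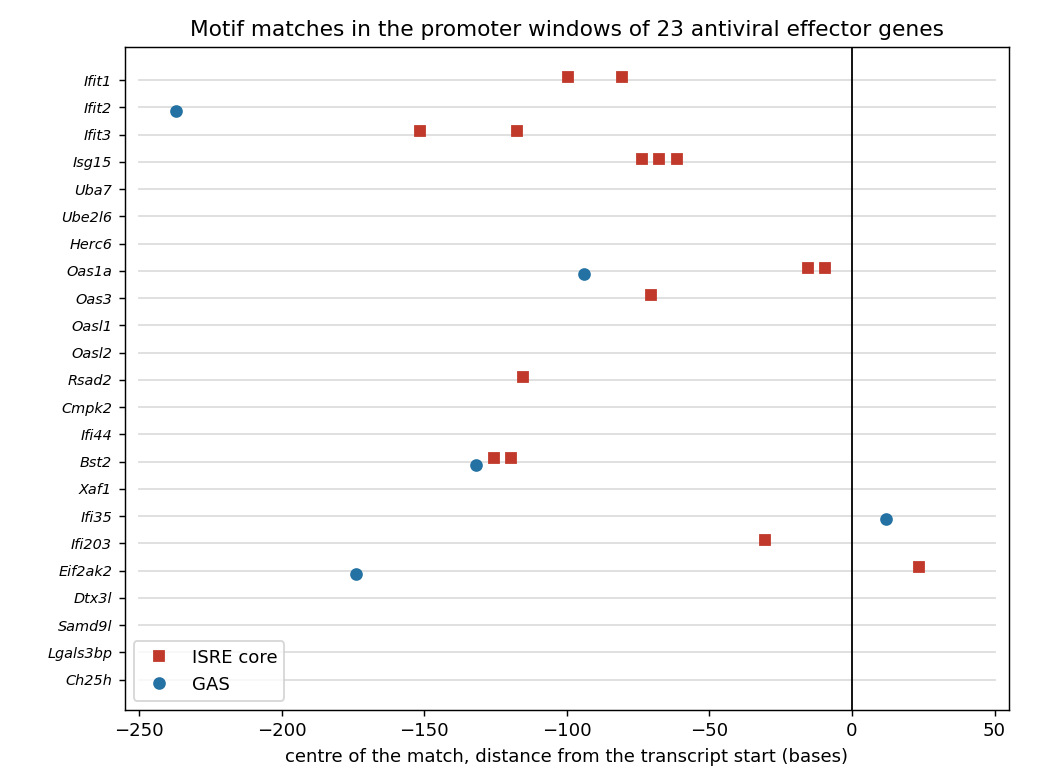
Centre of each ISRE core (red squares) and GAS match (blue circles) in the promoter windows of 23 antiviral effector genes, by distance in bases from the transcript start (0). ISRE cores lie upstream of the start in 8 genes and after it in Eif2ak2, where the match spans bases 19 to 28; rows without a marker hold no match of either.

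The Ifit genes encode repeat proteins, of which Ifit1 binds viral RNA with an unmodified cap. Ifit3 stood at 141 FPKM in Minimal Myc, 1.996 in MycN, 7.68 in Myc and 6.60 in vector. Ifit1 stood at 108 FPKM in Minimal Myc, 7.52 in MycN, 11.1 in Myc and 16.4 in vector. Both were far higher in Minimal Myc and lowest in MycN. Ifit2, a partner of Ifit3 that promotes cell death, stood at 17.4 FPKM in Minimal Myc, 9.52 in MycN, 8.76 in Myc and 9.30 in vector. It was the least separated Ifit gene, at 1.87 times vector in Minimal Myc where Ifit3 was at 21.4 times. In the RefSeq gene table Ifit2 and Ifit3 are next to each other on chromosome 19. The window of Ifit3 holds 2 ISRE cores (shown above) and the 2 windows of Ifit2 hold 0. The windows of Ifi44 (31.3 times vector), Cmpk2 (20.7) and Oasl2 (12.5) also hold 0, and that of Eif2ak2 (4.29) holds 1.

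Isg15 is a ubiquitin-like protein that is joined to other proteins by a chain of enzymes. Isg15 stood at 753 FPKM in Minimal Myc, 28.4 in MycN, 50.3 in Myc and 58.4 in vector. It was 12.9 times vector in Minimal Myc and 0.487 times in MycN. The enzymes of the chain were higher in Minimal Myc by smaller ratios. The activating enzyme Uba7 stood at 15.1 FPKM in Minimal Myc, 2.43 in MycN, 3.73 in Myc and 3.07 in vector. The conjugating enzyme Ube2l6 stood at 113 FPKM in Minimal Myc, 24.3 in MycN, 29.4 in Myc and 17.2 in vector. The ligase Herc6 stood at 19.5 FPKM in Minimal Myc, 3.83 in MycN, 4.36 in Myc and 3.77 in vector. The ratios of Minimal Myc to vector were 4.91 for Uba7, 6.56 for Ube2l6 and 5.18 for Herc6.

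Usp18, the protease that removes Isg15 and damps the type I interferon receptor, had wider gaps between libraries than those enzymes. Usp18 stood at 136 FPKM in Minimal Myc, 0.988 in MycN, 7.33 in Myc and 5.74 in vector. Its level in Minimal Myc was 23.8 times that in vector and 138 times that in MycN. In MycN it was 0.172 times vector, where Ube2l6 was 1.41 times and Herc6 1.02 times.

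The Oas enzymes make 2-5A, a second messenger of antiviral defence. Oas1a stood at 80.0 FPKM in Minimal Myc, 0.439 in MycN, 5.63 in Myc and 3.54 in vector. Oas2 stood at 32.03 FPKM in Minimal Myc, 0.0700 in MycN, 1.18 in Myc and 0.421 in vector. Oas3 stood at 21.6 FPKM in Minimal Myc, 0.742 in MycN, 1.002 in Myc and 1.51 in vector. All 3 were under 1 FPKM in MycN and above 20 FPKM in Minimal Myc. Oas2 had the highest ratio of Minimal Myc to vector in the set, 76.1, though its vector level was low. Mouse Oas1 genes are near-identical copies, so fragments may be shared between Oas1a and its relatives and the single values are uncertain.

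The Oas-like genes split. Oasl2, a ubiquitin-like domain protein, stood at 114 FPKM in Minimal Myc, 2.66 in MycN, 7.01 in Myc and 9.09 in vector. Oasl1, which in mice limits translation of Irf7, stood at 27.6 FPKM in Minimal Myc, 1.17 in MycN, 2.88 in Myc and 23.1 in vector. Oasl1 was thus high in vector as well as in Minimal Myc and low in the other libraries. Its level in Minimal Myc was 1.19 times vector, the lowest ratio in the set, but 9.58 times Myc and 23.6 times MycN. Oasl1 was the 4th highest of the 32 genes in vector and the 22nd in each other library. Oasl1 and Oasl2 are neighbours on chromosome 5.

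Mx proteins are dynamin-like GTPases that trap viral nucleocapsids. Mx2 stood at 39.8 FPKM in Minimal Myc, 0.239 in MycN, 1.33 in Myc and 1.16 in vector. Mx1 stood at 10.4 FPKM in Minimal Myc, 0.165 in MycN, 1.77 in Myc and 0.612 in vector. Both were below 2 FPKM outside Minimal Myc. Many laboratory mouse strains carry a broken Mx1, and the table cannot tell which form these cells have.

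Rsad2 (viperin) turns the nucleotide CTP into a form that ends viral RNA chains, Cmpk2 is a nucleotide kinase, and the genes lie side by side on chromosome 12. Rsad2 stood at 14.0 FPKM in Minimal Myc, 0.151 in MycN, 0.871 in Myc and 0.735 in vector. Cmpk2 stood at 10.5 FPKM in Minimal Myc, 0.0358 in MycN, 0.666 in Myc and 0.506 in vector. The neighbours had close ratios of Minimal Myc to vector, 19.0 for Rsad2 and 20.7 for Cmpk2, with all other levels under 1 FPKM.

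Bst2 (tetherin) holds budding virus on the cell surface and was the most abundant gene of the set in each library. Bst2 stood at 997 FPKM in Minimal Myc, 43.8 in MycN, 93.9 in Myc and 77.9 in vector. Together with Isg15 and Lgals3bp it made up 56.8% of the summed level in Minimal Myc, 45.7% in MycN, 49.7% in Myc and 48.1% in vector. Rtp4, a receptor-transporting protein with antiviral action, stood at 68.4 FPKM in Minimal Myc, 1.87 in MycN, 3.51 in Myc and 4.90 in vector. Ch25h, which makes the antiviral sterol 25-hydroxycholesterol, stood at 10.1 FPKM in Minimal Myc, 0.307 in MycN, 0.433 in Myc and 0.142 in vector. It was the lowest gene of the set in Minimal Myc, and 1 of the 7 with their lowest level in vector.

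Ifi27l2a, a small membrane protein gene, departed from the rest in Myc. Ifi27l2a stood at 40.5 FPKM in Minimal Myc, 4.16 in MycN, 29.3 in Myc and 11.7 in vector. The Myc level came close to that of Minimal Myc, a ratio of 1.38 where the median ratio of Minimal Myc to Myc over the set was 9.25. MycN was 0.142 times Myc.

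Genes that stop translation or growth were higher in Minimal Myc and otherwise close together. Eif2ak2 (PKR), the kinase that shuts off translation on sensing double-stranded RNA, stood at 48.4 FPKM in Minimal Myc, 12.5 in MycN, 13.8 in Myc and 11.3 in vector. Samd9l, a growth-restraining antiviral protein, stood at 31.97 FPKM in Minimal Myc, 3.16 in MycN, 3.58 in Myc and 4.55 in vector. Xaf1, which binds the apoptosis inhibitor Xiap, stood at 38.7 FPKM in Minimal Myc, 5.22 in MycN, 7.28 in Myc and 5.09 in vector. None of these 3 differed by 2-fold between any pair of MycN, Myc and vector.

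Parp9 and Dtx3l form a complex that pairs ADP-ribosylation with ubiquitin ligation, and Parp14 is a related ADP-ribosyltransferase. The 3 genes follow each other on chromosome 16 in the order Parp14, Dtx3l, Parp9. Parp9 stood at 32.1 FPKM in Minimal Myc, 2.90 in MycN, 3.85 in Myc and 2.47 in vector. Parp14 stood at 18.9 FPKM in Minimal Myc, 1.40 in MycN, 2.14 in Myc and 1.41 in vector. Dtx3l stood at 11.2 FPKM in Minimal Myc, 1.87 in MycN, 2.52 in Myc and 1.69 in vector. Their ratios of Minimal Myc to vector were 12.99 for Parp9, 13.4 for Parp14 and 6.62 for Dtx3l. MycN was close to vector here, at 1.18, 0.996 and 1.10 times.

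Ifi203 and Ifi204 belong to the Ifi200 family, whose proteins bind DNA in the nucleus and cytosol. Ifi204 stood at 87.2 FPKM in Minimal Myc, 7.97 in MycN, 16.4 in Myc and 12.7 in vector. Ifi203 stood at 44.2 FPKM in Minimal Myc, 1.48 in MycN, 6.69 in Myc and 5.40 in vector. The genes of this family are alike in sequence, so their single values are uncertain. Both were highest in Minimal Myc and lowest in MycN.

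Of the remaining genes, Ifi44 had the widest gap between Minimal Myc and Myc. Ifi44 stood at 136 FPKM in Minimal Myc, 0.809 in MycN, 1.67 in Myc and 4.35 in vector, so Minimal Myc was 81.5 times Myc and 31.3 times vector. Ifi35, a partner of Nmi in innate signalling, stood at 81.1 FPKM in Minimal Myc, 10.997 in MycN, 18.1 in Myc and 11.97 in vector. Lgals3bp, a secreted glycoprotein that binds galectins, stood at 285 FPKM in Minimal Myc, 21.2 in MycN, 57.6 in Myc and 30.9 in vector. Across the set, the ratio of Minimal Myc to vector was under 2 for 2 genes, from 2 to under 5 for 3, from 5 to under 10 for 10, from 10 to under 20 for 9, and 20 or more for 8. In 16 of the 32 genes the libraries ranked Minimal Myc, Myc, vector, MycN from high to low. The shares of all genes in these bands and in this order were not computed.

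The upstream pathway was described from lists of the same pathway. Their counts of genes at least 2-fold above vector are read against 13.6% of all genes in Minimal Myc, 7.65% in MycN and 11.2% in Myc, and those below vector against 1.68%, 1.86% and 1.56%. Centred counts, taken after subtraction of the shift of all genes, are read against 3.72% above in Minimal Myc, 1.86% in MycN and 1.87% in Myc, and against 4.68%, 4.19% and 4.38% below. Interferon genes themselves were low: 0 of 8 interferon ligand genes passed the filter. Ifnb1, the interferon of fibroblasts, stood at 1.25 FPKM in Minimal Myc, 0.0377 in MycN, 0.0774 in Myc and 0.314 in vector. Ifna4 stood at 0.306 FPKM in Minimal Myc, is listed at 0 in MycN and Myc, and stood at 0.0168 in vector. Both were highest in Minimal Myc, as was Ifna2 at 0.00759 FPKM, and Ifng is listed at 0 in all 4 libraries. The other ligand genes were not highest there. Ifna1 and Ifna5 were highest in vector, at 0.0303 and 0.0787 FPKM. Ifne was highest in Myc, at 0.254 FPKM, and Ifnk in MycN, at 0.0866 FPKM.

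Of 5 receptor genes, 2 were at least 2-fold above vector in Minimal Myc (1 centred) and 0 in MycN or Myc. Ifnar2, a chain of the type I receptor, stood at 45.3 FPKM in Minimal Myc, 22.7 in MycN, 23.3 in Myc and 14.9 in vector. Ifnar1, the other chain, was closer, at 14.9 FPKM in Minimal Myc, 10.8 in MycN, 9.64 in Myc and 10.2 in vector. Il10rb, a chain of the type III receptor, stood at 25.7 FPKM in Minimal Myc, 9.14 in MycN, 13.7 in Myc and 9.52 in vector.

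Of 5 kinase and ISGF3 genes, 3 were at least 2-fold above vector in Minimal Myc (2 centred) and 0 in MycN or Myc. Stat2 stood at 35.04 FPKM in Minimal Myc, 4.14 in MycN, 7.35 in Myc and 4.64 in vector. Irf9 stood at 36.1 FPKM in Minimal Myc, 4.58 in MycN, 10.0 in Myc and 6.26 in vector. Both genes were thus high in Minimal Myc. The kinase genes stood closer together than Stat2 and Irf9. Jak2 stood at 22.3 FPKM in Minimal Myc, 7.998 in MycN, 15.3 in Myc and 9.09 in vector. Jak1 stood at 60.2 FPKM in Minimal Myc, 39.0 in MycN, 42.5 in Myc and 32.02 in vector. Tyk2 stood at 4.46 FPKM in Minimal Myc, 4.69 in MycN, 4.84 in Myc and 3.49 in vector.

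Of 5 Irf genes past the filter, 3 were at least 2-fold above vector in Minimal Myc and 0 below. In MycN 2 were above and 1 below, and in Myc 1 was above and 0 below. Centred, 2 were above and 0 below in Minimal Myc, 1 above and 1 below in MycN, and 0 above and 1 below in Myc. Irf7, which amplifies interferon genes, stood at 58.3 FPKM in Minimal Myc, 0.685 in MycN, 3.83 in Myc and 7.41 in vector. It had the order of 8 of the 32 effectors, Oasl1 and Ifi44 among them: highest in Minimal Myc and lowest in MycN, with vector above Myc. Irf1 stood at 43.1 FPKM in Minimal Myc, 28.5 in MycN, 29.9 in Myc and 12.6 in vector. Irf5 had its highest level in MycN and stood at 7.99 FPKM in Minimal Myc, 16.8 in MycN, 5.92 in Myc and 2.52 in vector.

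Of 13 sensor and adaptor genes, 7 were at least 2-fold above vector in Minimal Myc and 0 below. In MycN 1 was above and 2 below, and in Myc 1 was above and 0 below. Centred, 6 were above and 1 below in Minimal Myc, 0 above and 3 below in MycN, and 0 above and 2 below in Myc. Tlr3, 1 of the 7, was under 1 FPKM in MycN, Myc and vector and passed the filter only through Minimal Myc. Zbp1, a sensor of Z-form nucleic acid, stood at 107 FPKM in Minimal Myc, 0.407 in MycN, 3.46 in Myc and 4.88 in vector. The RNA helicase sensor Ddx58 (RIG-I) stood at 50.02 FPKM in Minimal Myc, 6.87 in MycN, 11.2 in Myc and 7.50 in vector. Ifih1 (MDA5), a related sensor, stood at 16.4 FPKM in Minimal Myc, 0.844 in MycN, 1.57 in Myc and 2.85 in vector. MycN was again the lowest library for each of these 3 genes. Dhx58, a helicase that tunes them, stood at 29.4 FPKM in Minimal Myc, 2.81 in MycN, 4.04 in Myc and 3.29 in vector. These 4 had the widest differences between Minimal Myc and vector in their list.

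Of 7 negative regulators, 5 were at least 2-fold above vector in Minimal Myc and 0 in MycN or Myc, and 1 was in Minimal Myc when centred. Trex1, a nuclease that clears cytosolic DNA, stood at 24.1 FPKM in Minimal Myc, 7.52 in MycN, 9.55 in Myc and 6.61 in vector. Socs1, an inhibitor of Janus kinases, stood at 32.1 FPKM in Minimal Myc, 20.4 in MycN, 16.7 in Myc and 13.1 in vector. The difference of Socs1, 1.23 in log2(FPKM + 1), was smaller than that of 30 of the 32 effectors.

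Of 32 other antiviral effectors past the filter, 27 were at least 2-fold above vector in Minimal Myc and 0 below, with a median difference of 2.06, below the 2.99 of the 32 genes described here. In MycN 1 was above and 1 below, with a median of -0.13, and in Myc 4 were above and 0 below, with a median of 0.44. Centred, 25 were above and 0 below in Minimal Myc, 0 above and 6 below in MycN, and 0 above and 0 below in Myc. Trim14, Trim34a, Ifi205 and Oas1c averaged under 1 FPKM over MycN, Myc and vector. They passed the filter only through Minimal Myc, and all are among the 27. Counts without them were not computed. Iigp1, an immunity-related GTPase, stood at 77.9 FPKM in Minimal Myc, 0.170 in MycN, 2.37 in Myc and 1.03 in vector. Gbp3, a guanylate-binding protein, stood at 80.0 FPKM in Minimal Myc, 1.88 in MycN, 4.34 in Myc and 3.54 in vector.

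**Figure D4:**
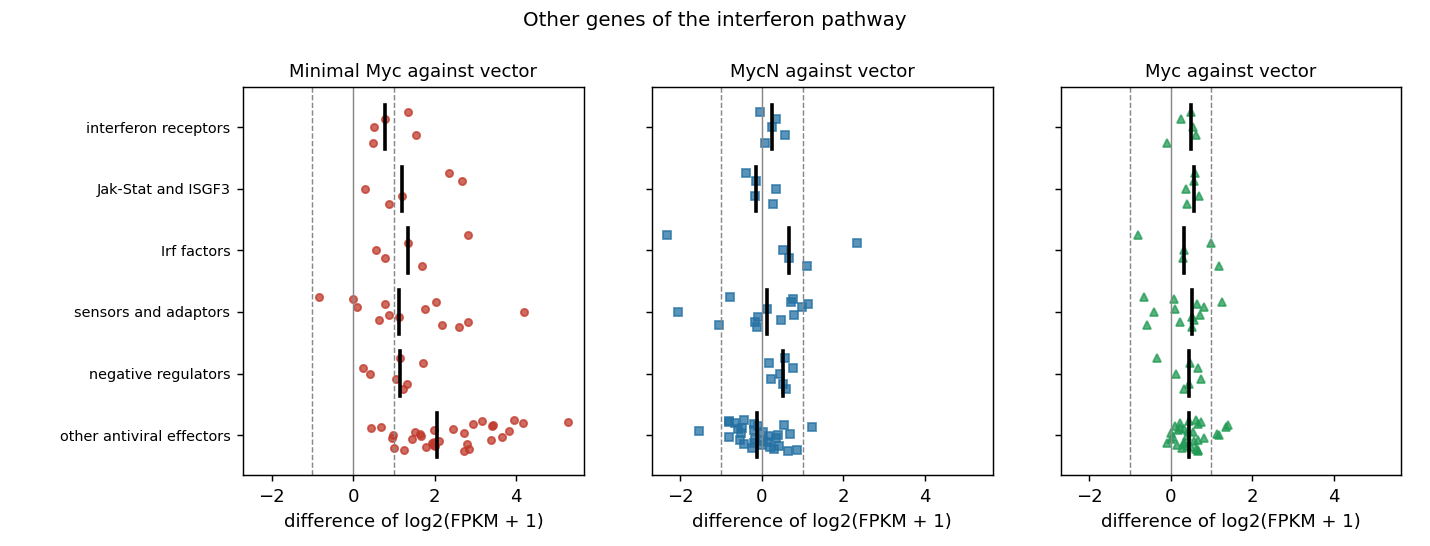
Difference of log2(FPKM + 1) against vector for measured genes of 6 interferon pathway lists in Minimal Myc, MycN and Myc, with 1 point per gene, black bars at list medians and dashed lines at 2-fold. In Minimal Myc the list medians run from 0.78 (receptors) to 2.06 (other antiviral effectors), and in MycN and Myc they lie between the dashed lines.

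Immune cells, which express many of these genes, left few transcripts. Of 16 immune markers, 3 reached 1 FPKM in each library, and the summed level was 16.6 FPKM in Minimal Myc, 16.3 in MycN, 15.1 in Myc and 12.99 in vector. Ptprc (CD45), the marker of all white blood cells, is listed at 0 in Minimal Myc and stood at 0.0215 FPKM in MycN, 0.00882 in Myc and 0.00596 in vector. Cd14, which fibroblasts can express, made up most of the sum in Minimal Myc, at 13 FPKM. The 8 epithelial markers summed to at most 0.746 FPKM and the 8 endothelial ones to at most 4.25 FPKM in any library. In whole cultures, more responding cells and more RNA per responding cell cannot be told apart.

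A second assay touched the pathway at 1 gene. The NanoString rows, hybridization signals of RNA molecules, cover 30 genes and 0 of the 32 effectors, but include B2m, the interferon-inducible light chain of MHC class I, chosen here after its values were seen. B2m gave a NanoString signal of 57149 in Minimal Myc, 22834 in MycN, 62438 in Myc and 46911 in vector. By sequencing it stood at 2324 FPKM in Minimal Myc, 1073 in MycN, 911 in Myc and 1269 in vector. Both assays put MycN below Minimal Myc and below vector. They differed on Myc, which was 1.33 times vector by NanoString and 0.718 times by FPKM. Minimal Myc and MycN both lay below Myc by NanoString and above it by FPKM. The assays also differed on the size for Minimal Myc, 1.22 times vector by NanoString and 1.83 by FPKM. For MycN the ratio to vector was 0.487 by NanoString and 0.845 by FPKM.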

How the data were processed

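RNA-seq of polyadenylated RNA was made from 4 fibroblast cultures, 1 library per group, with strand-keeping (dUTP) libraries, per the labels' protocols. The tools named per the submitters' processing notes are Cufflinks 2.2.0 and TopHat2 2.0.11, and the mouse build is mm9; their roles are not given. The authors deposited FPKM in 2 tables of 26608 rows. The scaled table equals the unscaled one times 1 factor per library (1.28 for Minimal Myc, 1.30 for MycN, 2.04 for Myc and 1 for vector). The 32 NanoString rows were set apart.

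Identical rows of a gene were merged (3 of the 32 genes have more than 1 row) and others summed. Of 23366 genes, 11641 reached a mean of 1 FPKM over the libraries and were kept, without 309 small RNA genes. Differences are of log2(FPKM + 1) in the unscaled table, for 6 comparisons, and a gene was counted at 2-fold or more. Library depth is unknown, because FPKM do not carry it, and no interval is given. No test was run. The calculation was tested on simulated data. Python 3.11.15 and pandas 2.3.3 were used.

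The genes and lists were chosen with earlier results of these data known. Every gene of the set is named with its level in each library. Any gene of the ligand, receptor, kinase and Irf lists could be named. Of the other lists, up to 4 with the widest difference between Minimal Myc and vector could be. Rmrp, B2m, Ptprc and genes named only in the closing section were picked with their values in view. So were Tlr3, Trim14, Trim34a, Ifi205 and Oas1c, named for passing the filter only through Minimal Myc. Some genes of the pathway are not reported here. Promoter windows and gene order come from RefSeq tables of build GRCm38.p6. Alternatives were the scaled table, a pseudocount of 0.1 FPKM, no filter, a filter at 5 FPKM, centring on the median of all genes, the highest row of a gene, and a 4-fold threshold. A filter on the mean of MycN, Myc and vector was added after seeing the data.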

Additional observations from a re-analysis of the deposited data

How the results depend on the processing

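Minimal Myc kept 24 to 31 of the 32 genes at least 2-fold (or 4-fold) above vector and 24 to 30 above Myc and 25 to 31 above MycN under all 8 alternatives, and 0 below in each. The low ends come from filters that leave 26 or 27 genes measured. Counts that moved by over 1.5 times were these. In the scaled table of the authors, 19 genes were higher and 1 lower in Myc against vector (1 and 2 in the unscaled table), 7 lower in MycN against vector (11), and 22 lower in MycN against Myc (10). With a pseudocount of 0.1 FPKM 4 were higher in Myc against vector, and after centring 0. With a 4-fold threshold 0 were higher and 1 lower in Myc against vector, 1 lower in MycN against vector and 3 lower in MycN against Myc. Beyond the main setting, shares of all genes were computed only for centring against vector and some counts of the scaled table. The counts under the other alternatives, the ranges above included, therefore have no share of all genes beside them. The median of the 32 genes in MycN against vector stayed below 0, from -0.98 (pseudocount 0.1) to -0.40 (scaled table). In Myc against vector it changed sign, from -0.21 (centred) to 1.15 (scaled table). No paired analysis was possible because each group has 1 library. FPKM hide the depth, so levels under 1 FPKM, as in MycN, may rest on few fragments.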

Other observations

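Across the whole table, 30 genes were at least 8-fold higher in Minimal Myc than in each other library (0.258% of 11641). Of these, 12 were antiviral effectors described above, 7 stood in the other lists and 11 in none. Among the 12, Oas2, Mx2 and Rsad2 passed the filter only through Minimal Myc. The 11 were found after their values were seen. Slfn2, a Schlafen family gene, stood at 70.3 FPKM in Minimal Myc, 0.925 in MycN, 3.23 in Myc and 1.38 in vector. Psmb8, a catalytic subunit of the immunoproteasome, stood at 86.3 FPKM in Minimal Myc, 8.22 in MycN, 6.52 in Myc and 7.77 in vector. Apol9b, an apolipoprotein L gene, stood at 157 FPKM in Minimal Myc, 13.6 in MycN, 11.5 in Myc and 17.1 in vector. Tgtp2, an immunity-related GTPase, stood at 18.2 FPKM in Minimal Myc, 0.0487 in MycN, 0.685 in Myc and 0.386 in vector. AF357425 stood at 24.9 FPKM in Minimal Myc and is listed at 0 in the others, so its place rests on values that can be failed estimates. Both AF357425 and Tgtp2 were under 1 FPKM outside Minimal Myc and so passed the filter only through it.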
